A study of Homo sapiens with 3 samples.

Results

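The bodies of 7 androgen-induced genes of metabolism and signalling, CAMKK2, SORD, HERC3, IGF1R, PPAP2A, MAF and RHOU, were examined for H3K36me3, the trimethyl mark on lysine 36 of histone H3, by ChIP-seq (sequencing of DNA recovered with an antibody to the mark). The cells were LNCaP, an established prostate cancer line that responds to androgen through its androgen receptor. One library came from cells given 100 nM dihydrotestosterone (DHT), a potent androgen, for 4 h in red-free RPMI, and 1 from cells labelled as without treatment. Both were of the same line, kept in RPMI with 10% serum. The hormone and the red-free medium were labelled together, so their effects cannot be told apart here. The input library, made without antibody, was not analysed here.

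The members were chosen as 7 named genes, by the hg19 spans of their bodies in whole kb. Of 131801 peaks in the DHT list and 117568 in the untreated list, 142 and 94 touched these spans. With 1 library per condition there was no replicate, and no p-value was computed. Intervals are 95% counting intervals, which treat peaks as independent and do not cover the spread between libraries. Sequencing depth is unknown, and copy number was not measured. Because gene coordinates of this build were not at hand beyond the 7 spans, markers of the labelled cell type were not analysed here.

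H3K36me3 is placed on the bodies of transcribed genes by SETD2, which travels with elongating RNA polymerase II, and it is usually denser towards the end of a gene. Androgen binds the androgen receptor, a nuclear receptor that then acts at enhancers and promoters, and in prostate epithelium its targets span secretion, metabolism and growth signalling. CAMKK2 is a calcium/calmodulin-dependent kinase that activates AMPK, and SORD converts sorbitol to fructose in the polyol pathway. PPAP2A, now named PLPP1, is a lipid phosphate phosphatase that acts on phosphatidic and lysophosphatidic acid. IGF1R is the receptor tyrosine kinase for insulin-like growth factors, upstream of PI3K-AKT and MAPK signalling. RHOU is a small GTPase, MAF a basic leucine zipper transcription factor, and HERC3 a HECT-type ubiquitin ligase.

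Promoters are shown for CAMKK2 and IGF1R, the 2 genes of over 50 kb whose covered length differed by at least 1.5-fold, and for MAF, whose promoter had the fewest CpG dinucleotides. Each sequence is the 250 bases before the RefSeq start on GRCh38.p14, 5′ to 3′ on the gene's strand, with CpG in capitals. They lie at chr12:121296710-121296959 (minus strand), chr15:98648289-98648538 (plus strand) and chr16:79600738-79600987 (minus strand).
CAMKK2: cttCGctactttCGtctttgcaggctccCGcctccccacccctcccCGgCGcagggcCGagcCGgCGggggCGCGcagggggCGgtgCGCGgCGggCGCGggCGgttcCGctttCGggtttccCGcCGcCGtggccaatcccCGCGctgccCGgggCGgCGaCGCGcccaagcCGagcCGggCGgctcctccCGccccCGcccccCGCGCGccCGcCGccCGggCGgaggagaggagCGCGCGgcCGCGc
IGF1R: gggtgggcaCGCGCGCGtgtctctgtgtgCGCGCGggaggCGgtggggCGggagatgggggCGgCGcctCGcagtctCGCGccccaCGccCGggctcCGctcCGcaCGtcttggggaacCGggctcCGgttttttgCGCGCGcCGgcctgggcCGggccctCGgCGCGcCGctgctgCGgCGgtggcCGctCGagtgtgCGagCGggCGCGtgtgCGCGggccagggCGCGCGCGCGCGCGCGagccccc
MAF: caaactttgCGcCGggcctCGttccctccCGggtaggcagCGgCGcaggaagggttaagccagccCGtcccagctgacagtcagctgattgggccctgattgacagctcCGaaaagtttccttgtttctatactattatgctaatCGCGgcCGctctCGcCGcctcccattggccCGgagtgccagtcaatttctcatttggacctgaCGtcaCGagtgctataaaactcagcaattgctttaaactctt

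RefSeq promoters were matched for 5 of the 7 genes, 7 promoters in all since RHOU and HERC3 have more than 1. The IGF1R promoter held 48 CpG and 81.2% G or C, and the CAMKK2 promoter held 46 CpG and 82.8% G or C. Of 35116 RefSeq promoters, each cut to the same 250 bases before the start, 0.262% held as many CpG as that of IGF1R and 0.413% as many as that of CAMKK2, against a median of 11. The MAF promoter held 16, a number that 41% of promoters reached. Those of HERC3 held 33 and 28, reached by 8.15% and 15.9% of promoters. Those of RHOU held 23 and 41, reached by 25.8% and 1.73%. The androgen receptor half-site AGAACA, searched on both strands (AGAACA or TGTTCT), was in none of the 7 windows and in 12.4% of all promoters. These windows are on another build than the peaks and were not placed on them.

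The bodies of CAMKK2, IGF1R, MAF and RHOU were at least 1.5-fold more covered by peaks after DHT than in untreated cells, and those of SORD, HERC3 and PPAP2A were within 1.5-fold. None was 1.5-fold less covered. MAF had no untreated peak, so it has no ratio and is counted as more covered through a single DHT peak. Covered here means the share of the body's length that lies in a peak. IGF1R was the only 1 of the 7 whose counting interval for the ratio lay above 1. Covered length over the whole lists was 1.03 times as high after DHT, and peak number 1.12 times.

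These counts stand against how often any stretch of the genome differed as much. Of 10 kb spans at least 1% covered in either library, 35.8% were 1.5-fold more covered after DHT and 33% 1.5-fold less. MAF and RHOU are of that size. The shares were 25.4% and 22.4% for 50 kb spans, the size nearest CAMKK2 and SORD, and 18.4% and 16% for 100 kb spans, nearest HERC3 and PPAP2A. For 300 kb spans, nearest IGF1R, they were 9.21% and 8.84%. For short bodies a 1.5-fold difference was thus common in either direction, and the 4 of 7 describes genes of unequal length. All 7 bodies were at least 5% covered in 1 library or both, and thinly covered spans differ more easily. IGF1R and MAF reached 5% only in the DHT library, where they are higher. Of spans at least 5% covered, 28.6% of those of 10 kb were 1.5-fold more covered after DHT and 29% less. For 50 kb the shares were 15.6% and 14.1%, for 100 kb 12.1% and 7.8%, and for 300 kb 8.23% and 2.8%.

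**Figure D1:**
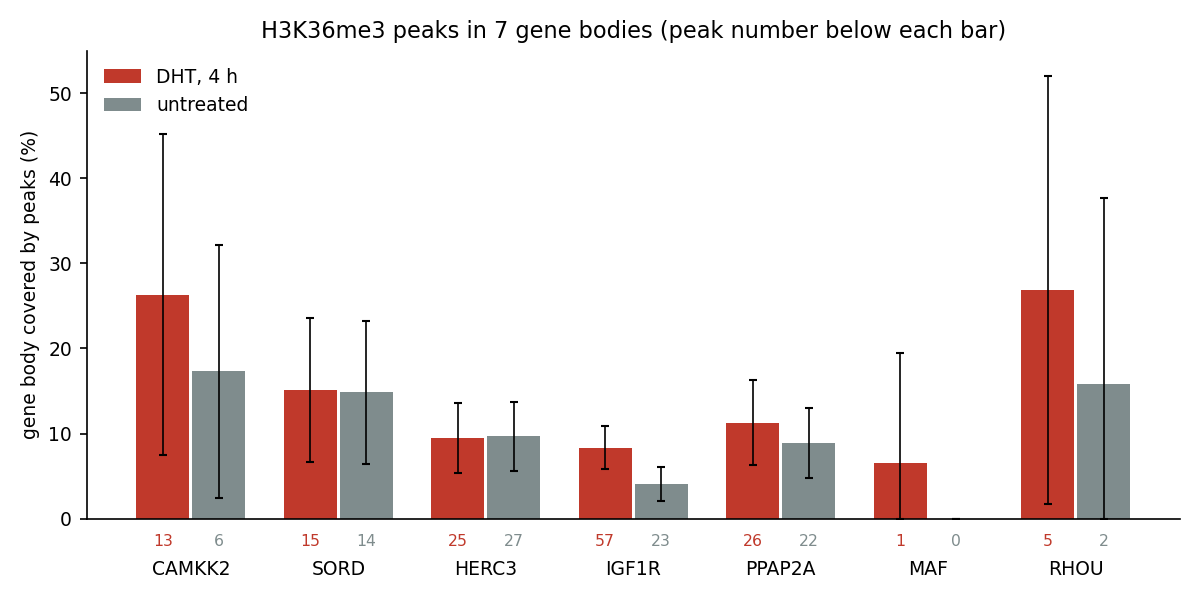
Share of each gene body covered by H3K36me3 peaks (percent) in the DHT library (left bar of each pair) and the untreated library (right bar), with 95% counting intervals and the number of peaks below each bar. The bars of CAMKK2, IGF1R and RHOU differ by at least 1.5-fold, and those of SORD and HERC3 are nearly level. MAF has a DHT bar only.

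Among the 7 genes the share of the body covered by peaks was highest for RHOU and CAMKK2 and lowest for IGF1R and MAF. After DHT, coverage was 26.9% for RHOU, 26.3% for CAMKK2, 15.1% for SORD, 11.3% for PPAP2A, 9.48% for HERC3, 8.32% for IGF1R and 6.57% for MAF. In untreated cells it was 17.3% for CAMKK2, 15.8% for RHOU, 14.8% for SORD, 9.65% for HERC3, 8.89% for PPAP2A, 4.08% for IGF1R and 0% for MAF. Intervals of neighbours in either order overlapped, apart from MAF in untreated cells, which had no peak. Of all 61865 adjoining 50 kb spans, bare ones included, 0.315% were at least as covered as CAMKK2 after DHT and 1.58% in untreated cells. Of all 10320 spans of 300 kb, 6.72% were at least as covered as IGF1R after DHT and 19.3% in untreated cells. Only 22242 of the 50 kb spans and 4584 of the 300 kb spans were at least 1% covered in either library. Among those the shares would be larger.

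**Figure D2:**
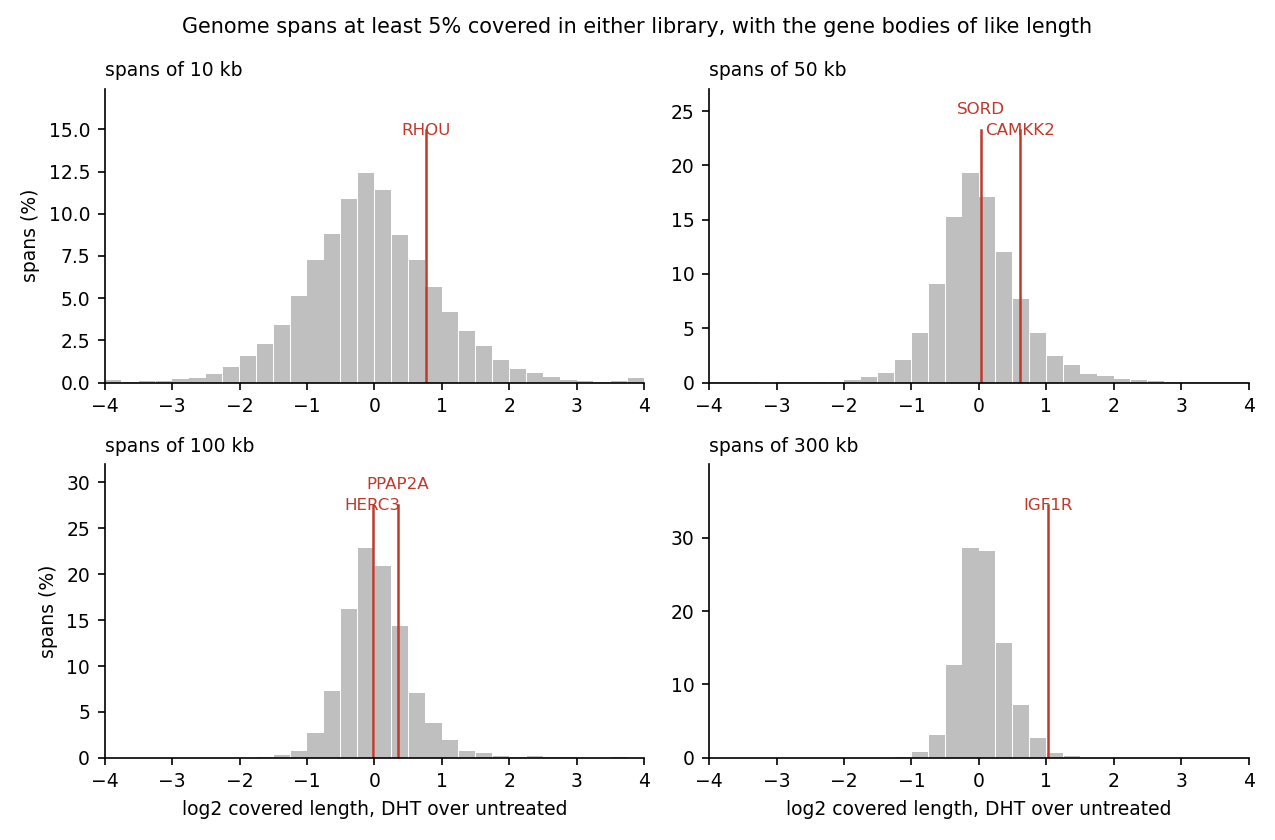
Log2 ratio of covered length, DHT over untreated (horizontal axis), for all genome spans at least 5% covered in either library (grey bars, percent of spans), with vertical lines for the gene bodies nearest to each span size. Spans with no peak in 1 library and MAF have no ratio and are not drawn, and ratios beyond the axis are counted in its end bars. The spread narrows with span size, and the line of IGF1R stands in the upper tail of the 300 kb spans. IGF1R reached 5% only in the DHT library.

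IGF1R had more, mostly small, peaks after DHT along nearly its whole length. Its body on chromosome 15 from 99193001 to 99508000 held 57 peaks in the DHT library and 23 in the untreated library, a ratio of 2.48 (1.5 to 4.21). Covered length was 26194 bp after DHT and 12866 bp in untreated cells, a ratio of 2.04 (1.14 to 3.62). The interval included 1 in the better-scoring 50% of each list, at 2.24 (0.943 to 5.33), and with peaks joined at 1 kb, at 1.89 (0.924 to 3.86), or at 5 kb, at 2.79 (0.779 to 10.009). At a 2-fold threshold, 2.77% of 300 kb spans at least 1% covered were higher after DHT and 2.03% lower. Of spans at least 5% covered, 0.914% were 2-fold higher and 0.114% lower. IGF1R reached that 5% only in the DHT library (8.32%, against 4.08% in untreated cells), and the minimum was added after seeing the data. These last 2 shares are therefore no independent measure of how rare its ratio is.

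The extra IGF1R peaks filled long stretches that were empty in untreated cells. Cut into 32 steps of 10 kb from the start (the last being shorter), the body had a DHT peak in 31 steps and an untreated peak in 15. All 15 also had a DHT peak, which was nearly bound to be so with DHT peaks in 31 of the 32 steps. The longest stretch without a peak was 20.2 kb after DHT and 68.7 kb in untreated cells. The first 10 kb held 3 DHT peaks covering 1748 bp and no untreated peak. The DHT peak nearest the start ran from 99193301 to 99194006 with a score of 150, above 81.1% of the DHT list.

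**Figure D3:**
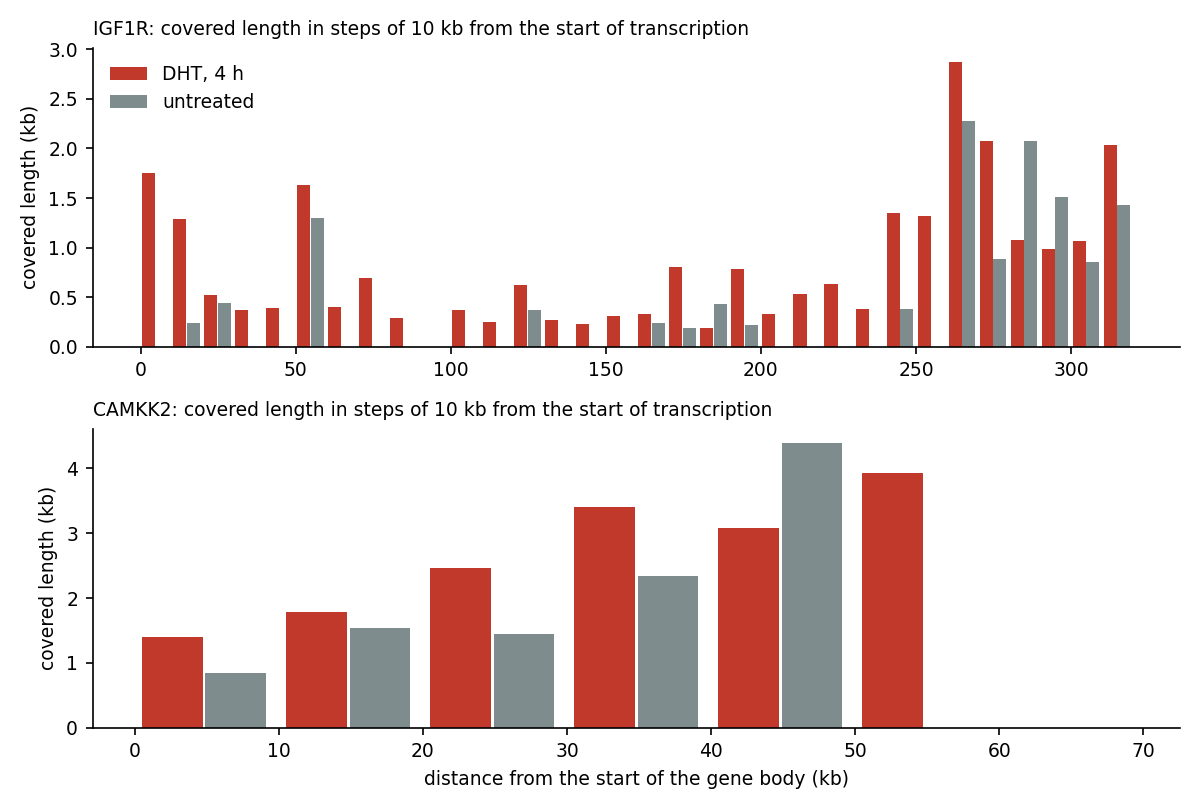
Covered length (kb) in each 10 kb step from the start of transcription along IGF1R (top) and CAMKK2 (bottom), with the DHT library left and the untreated library right in each step. The final step of each gene is shorter than 10 kb. Along IGF1R, DHT bars stand alone in 16 steps and untreated bars in none, and both libraries are highest near the end of the gene.

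The last part of IGF1R, which holds most of the gene's exons, was the best covered in both libraries. With the body cut into 3 equal parts, coverage in the start-side part was 7.0% after DHT and 1.89% in untreated cells, a ratio of 3.71 (0.853 to 16.2). In the middle part it was 4.29% and 1.39%, a ratio of 3.09 (1.16 to 8.21). In the end-side part it was 13.7% after DHT and 8.98% in untreated cells, a ratio of 1.52 (0.722 to 3.20). The intervals of the 3 parts overlap, so a larger ratio at the start was not separable from an even one.

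The strongest IGF1R peaks were common to both libraries. The highest-scoring peak lay from 99465335 to 99466728 after DHT, with a score of 432, and from 99465401 to 99466090 in untreated cells, with a score of 251. They overlap and rank above 98.8% of the DHT list and 95.6% of the untreated list. In the DHT list 44 of the 57 IGF1R peaks had no untreated counterpart. The share with a counterpart was 22.8%, against 48.5% over the whole DHT list. The median score of the 44 was 79.7 and their median width 348.5 bp, while the 13 with a counterpart had medians of 113 and 662 bp. The whole DHT list had a median score of 85.7, and 27 of the 57 DHT peaks were at or above it. In the untreated list 9 of the 23 IGF1R peaks were at or above that list's median of 81.2.

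The ratios of the IGF1R flanks lay on either side of 1, and the intervals of both included 1. Upstream, a flank as long as the body held 5 DHT peaks over 1378 bp and 2 untreated peaks over 497 bp, a ratio of 2.77 (0.522 to 14.7). Downstream it held 18185 bp after DHT and 20635 bp in untreated cells, a ratio of 0.881 (0.468 to 1.66). Over both flanks coverage was 3.11% after DHT and 3.35% in untreated cells, a ratio of 0.926 (0.502 to 1.71). The body's ratio was 2.20 times that of the flanks, but the interval of that quotient included 1 (0.95 to 5.09). The long noncoding RNA gene IRAIN overlaps the start of IGF1R in RefSeq, and ChIP reads carry no strand, so peaks there cannot be assigned to either gene.

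CAMKK2 was broadly covered in both libraries, and further towards its end after DHT. On chromosome 12 from 121675001 to 121736000 it held 13 DHT peaks over 16066 bp and 6 untreated peaks over 10566 bp. The ratio of covered length was 1.52 (0.496 to 4.66) and that of peak number 2.17 (0.768 to 6.95), and both intervals included 1. The first ratio was under the 1.5-fold threshold with the lists trimmed to equal length (1.48), the body widened by 5 kb (1.37) or the better-scoring 50% of each list (1.19). CAMKK2 peaks were the widest among the 7 genes, with medians of 873 bp after DHT and 1488 bp in untreated cells, against 354 and 374 bp over the whole lists.

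The widest of all member peaks was at the end side of CAMKK2. It ran from 121684034 to 121688603, 4570 bp, in the DHT library with a score of 148, and 31.3% of it was covered by an untreated peak. Between 50 and 60 kb from the start, DHT peaks covered 3925 bp and untreated peaks none. Between 40 and 50 kb the order was the other way, at 3084 bp after DHT and 4391 bp in untreated cells. There the widest untreated CAMKK2 peak, from 121690021 to 121692972 (2952 bp), had no DHT counterpart. The highest-scoring DHT peak, from 121710897 to 121712584 with a score of 332, lay 23.4 kb from the start and overlapped an untreated peak.

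Coverage of CAMKK2 was higher towards the end of the gene in both libraries. From the start, the 3 parts were covered by 15.7%, 28.9% and 34.5% after DHT, and by 11.7%, 18.6% and 21.6% in untreated cells. All 3 parts were more covered after DHT, with ratios of 1.34 (0.231 to 7.74), 1.55 (0.273 to 8.8) and 1.6 (0.218 to 11.7). Each part held 2 untreated peaks, and all 3 intervals included 1 and overlapped. The flanks, where P2RX4 and ANAPC5 are the neighbouring protein-coding genes in RefSeq, were covered by 9.38% after DHT and 10.1% in untreated cells. Body over flank ratios differed by 1.63 times (0.419 to 6.37).

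**Figure D4:**
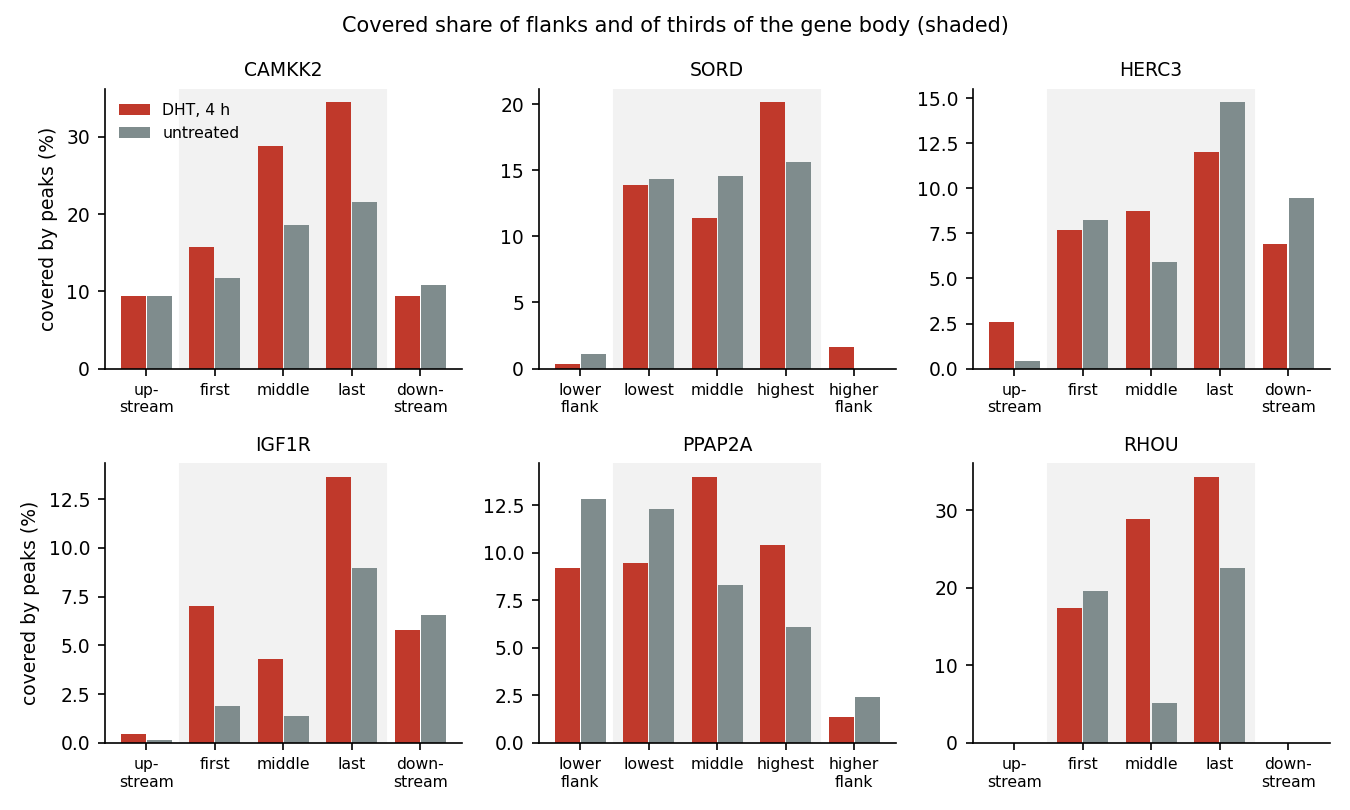
Share of sequence covered (percent) in 3 equal parts of each gene body (shaded) and in flanks as long as the body, with the DHT library left and the untreated library right in each pair. Parts run along the direction of transcription for CAMKK2, HERC3, IGF1R and RHOU and by coordinate for SORD and PPAP2A; MAF is left out. Coverage of CAMKK2 climbs from the start-side to the end-side part in both libraries, and SORD and RHOU have little or no coverage in their flanks. The upstream flanks of HERC3 and RHOU may lie partly or wholly within longer forms of these genes.

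SORD, the enzyme of sugar metabolism in the set, showed nearly equal coverage with and without DHT. Its body on chromosome 15 from 45315001 to 45367000 held 15 DHT peaks over 7874 bp and 14 untreated peaks over 7720 bp. The ratio was 1.02 (0.460 to 2.26), which leaves room for a 2-fold difference either way. The flanks were almost bare, at 0.975% after DHT and 0.542% in untreated cells, so nearly all covered sequence in this stretch lay within the gene's span.

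SORD also held the highest-scoring peak of the 7 genes in both libraries. It ran from 45321425 to 45322012 after DHT with a score of 712, above 99.8% of that list. The untreated counterpart ran from 45321380 to 45322288 with a score of 354, above 98.5% of its list. Peaks of SORD overlapped in 9 of 15 cases after DHT and 9 of 14 in untreated cells. The whole-list shares were 48.5% and 52.3%. The pseudogene SORD2P lies elsewhere on the same chromosome, and how reads shared by such copies were placed is not given in the sources used here.

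PPAP2A, the lipid phosphatase, had ratios on both sides of 1 along its length. On chromosome 5 from 54721001 to 54831000 it held 26 DHT peaks over 12415 bp and 22 untreated peaks over 9778 bp, a ratio of 1.27 (0.670 to 2.41). By coordinate, the lowest of its 3 parts was covered by 9.47% after DHT and 12.3% in untreated cells. The middle part was covered by 14.0% and 8.30%, and the highest part by 10.4% and 6.09%. The ratios of these parts were 0.771, 1.69 and 1.70, and all 3 intervals included 1.

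The flank of PPAP2A at lower coordinates, next to MTREX in RefSeq, was also less covered after DHT, at 9.20% against 12.8% in untreated cells. At higher coordinates the flank had 1.347% after DHT and 2.38% in untreated cells. The strongest DHT peak, from 54725094 to 54726319 with a score of 366, overlapped the widest untreated one, from 54725177 to 54726298 with a score of 136. The strongest untreated peak, from 54731601 to 54732453 with a score of 198, had no DHT counterpart. RefSeq places MTREX and the pseudogene RNF138P1 partly over this gene, and peaks there cannot be assigned to 1 of them.

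HERC3, the ubiquitin ligase, was covered alike in both libraries and was the only member with fewer peaks after DHT. On chromosome 4 from 89514001 to 89630000 it held 25 DHT peaks over 10996 bp and 27 untreated peaks over 11196 bp, a ratio of 0.982 (0.538 to 1.79). Its end-side part was the best covered, at 12.0% after DHT and 14.8% in untreated cells, against 7.69% and 8.23% in the start-side part. In the middle part coverage was 8.73% after DHT and 5.94% in untreated cells. The longest stretch without a peak was 17.7 kb after DHT and 36.5 kb in untreated cells.

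The ratios of the HERC3 flanks lay on either side of 1, with a downstream interval that included 1. The upstream flank as long as the body held 8 DHT peaks over 2972 bp and 2 untreated peaks over 516 bp, a ratio of 5.76 (1.14 to 29.1) that rests on few peaks. RefSeq gives HERC3 promoters at 88523593-88523842 and 88592230-88592479 on GRCh38.p14, both on the plus strand. The span may be a shorter form of the gene, so the upstream flank may hold part of a longer HERC3 unit. The downstream flank, next to FAM13A in RefSeq, held 21 DHT peaks over 8012 bp and 26 untreated peaks over 11000 bp, a ratio of 0.728 (0.385 to 1.38). Over both flanks the ratio was 0.954 (0.533 to 1.71). The strongest DHT peak of HERC3, from 89618684 to 89619859 with a score of 522, overlapped an untreated peak of score 212. The NAP1L5 gene lies inside HERC3 in RefSeq, so a peak over it cannot be assigned to 1 of them.

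**Figure D5:**
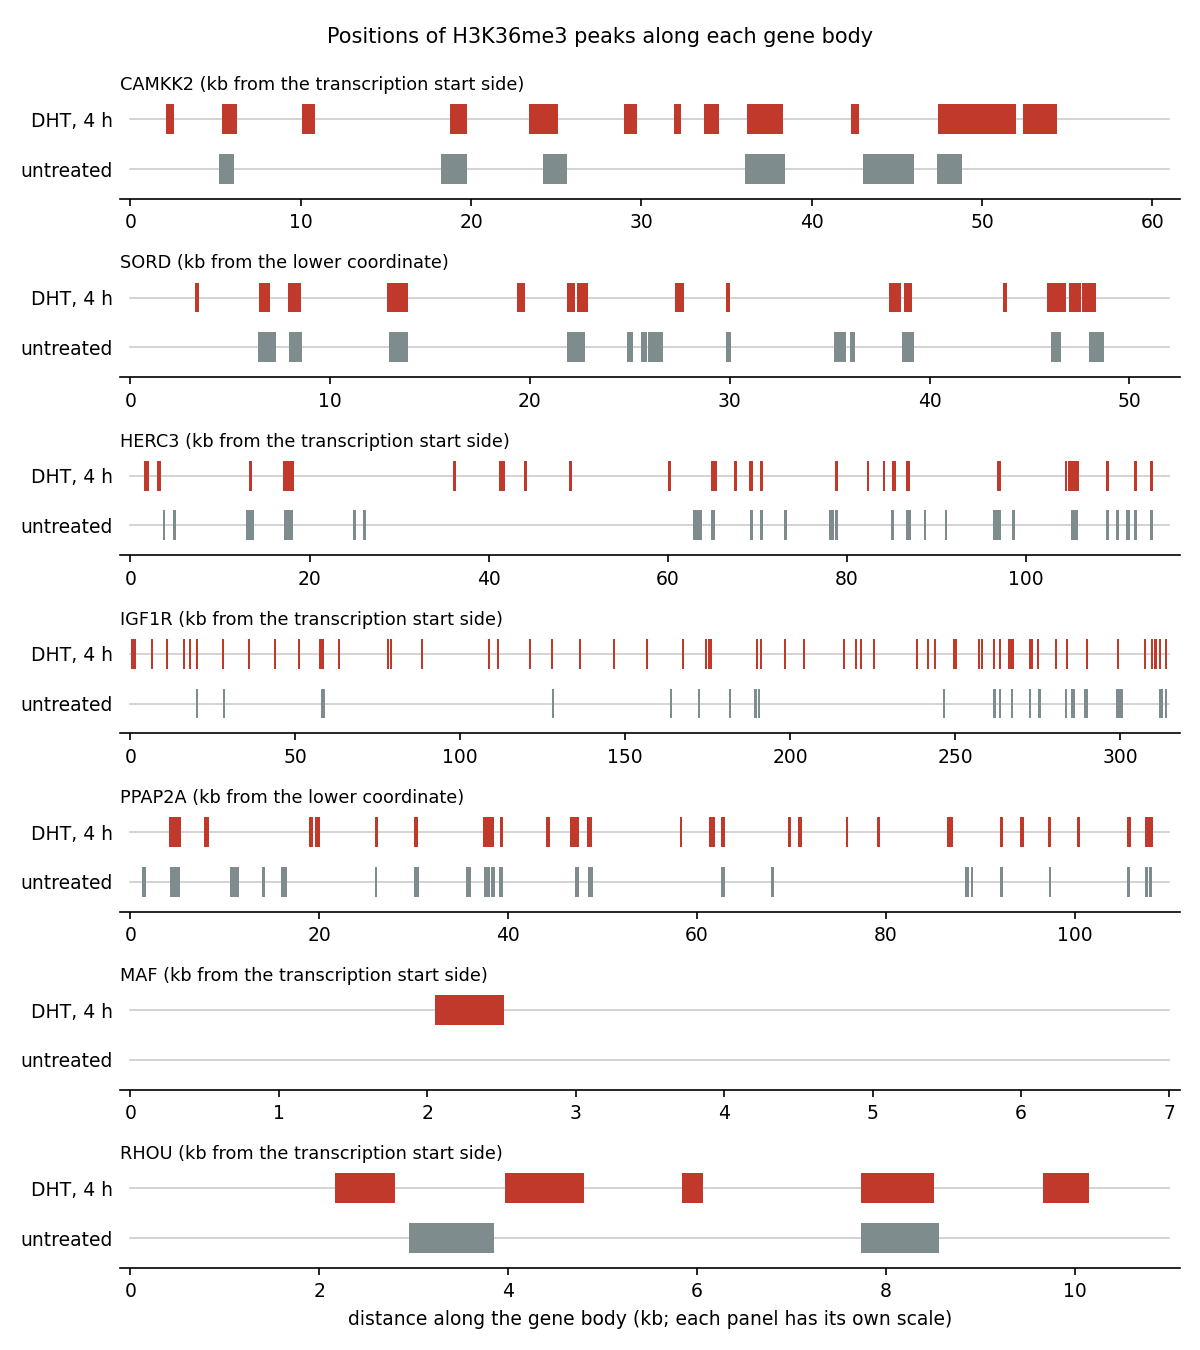
Peaks along each gene body, with the DHT library in the upper row and the untreated library in the lower row of each panel (horizontal axis in kb, its own scale per panel). Distance runs from the transcription start, or from the lower coordinate for SORD and PPAP2A, and peaks too narrow to see are drawn slightly wider. DHT peaks are spread over nearly all of IGF1R, where untreated peaks leave long gaps, and MAF has 1 DHT peak and no untreated peak.

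RHOU and MAF, the shortest bodies, had few peaks. RHOU, on chromosome 1 from 228871001 to 228882000, held 5 DHT peaks over 2958 bp and 2 untreated peaks over 1735 bp, a ratio of 1.70 (0.320 to 9.09). Neither flank of RHOU had a peak in either library. RefSeq gives RHOU promoters at 228644397-228644646 and 228735229-228735478 on GRCh38.p14, both on the plus strand. The span may be a shorter form, so the upstream flank may lie within a longer RHOU unit. One peak was common to both libraries, with the same first base, 228878735, a score of 232 after DHT and a score of 227 in untreated cells. The other DHT peaks scored 262, 101, 84.7 and 235, and the other untreated peak scored 195. After DHT, coverage of the 3 parts of RHOU from its start was 17.4%, 28.9% and 34.3%, and in untreated cells it was 19.6%, 5.11% and 22.6%.

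MAF, on chromosome 16 from 79628001 to 79635000, held 1 DHT peak of 460 bp from 79632487 to 79632946, with a score of 133, and no untreated peak. No ratio can be given, and the difference rests on a single peak, whose score exceeds 76.2% of the DHT list. The span is the short form of the gene, and RefSeq also annotates a far longer MAF transcript unit.

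Across the 7 bodies, as over the whole lists, a minority of DHT peaks and a majority of untreated peaks had a counterpart in the other library. An untreated peak overlapped 38.0% (30.0% to 46.5%) of the 142 DHT peaks, and a DHT peak overlapped 59.6% (49.0% to 69.6%) of the 94 untreated peaks. Over the whole lists the shares were 48.5% of DHT peaks and 52.3% of untreated peaks. IGF1R had the lowest share after DHT among the genes with more than 5 peaks, 22.8% (12.7% to 35.8%), while 56.5% of its untreated peaks were overlapped. IGF1R held 57 of the 142 DHT peaks and 44 of the 88 without a counterpart, so the pooled DHT share leans on this gene. Shares after DHT were 38.5% at CAMKK2, 46.2% at PPAP2A, 56% at HERC3 and 60% at SORD. RHOU had 20% of 5 DHT peaks overlapped, and the single MAF peak was not overlapped. Shared sequence was 0% of all covered sequence at MAF, 19.9% at RHOU, 20.1% at IGF1R, 29.7% at CAMKK2, 32.5% at HERC3, 34.1% at PPAP2A and 38.0% at SORD.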

How the data were processed

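The data are H3K36me3 ChIP-seq peak lists of LNCaP cells, 1 library after DHT and 1 untreated. The authors deposited, per library, peaks with a score whose scale is not stated (50 to 3100 in both lists). The peak names of the deposited lists give MACS as the caller, and the file names give hg19. Its settings, the control and the aligner were not stated. Scores rank peaks within their own list, and scores of the 2 lists are set side by side as the authors' values only. Calling short peaks over a broad mark can break 1 domain into several, so coverage depends on the caller's threshold and is not a measure of the amount of the mark.

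Members and lists were chosen with earlier results of these data known. The text names the 7 members, with the widest and highest-scoring peak of each library; the flank, step and RHOU peaks were named after their values were seen. Other pathway genes and cell markers listed for counting could not be placed on hg19 and were not analysed here. Strand and neighbours come from RefSeq (GRCh38.p14), for 5 members in the case of strand.

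Nuclear peaks were clipped to the spans with NumPy 2.4.6 under Python 3.11.15. Covered length and peak number equalled those of bedtools 2.31.1 in 14 of 14 values. Overlap needs 1 bp. Ratios of covered length have intervals with summed squared widths as a Poisson variance, peak number ratios exact conditional intervals, and shares Clopper-Pearson intervals (SciPy 1.17.1). The background of fold differences is all adjoining spans of 10, 50, 100 or 300 kb at least 1% covered in either library. The 5% minimum was added after seeing the data. Shares of spans as covered as CAMKK2 or IGF1R used all spans, without a minimum. On simulated data, 10 of 10 known answers were recovered. No test was run across libraries.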

Additional observations from a re-analysis of the deposited data

How the results depend on the processing

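With 1 library per condition no setting could leave out a replicate. No paired analysis was possible because each group has 1 library. The ratios of covered length of the 6 genes that have one stayed inside their counting intervals in all 42 values recomputed. The settings were the 50% of peaks with the best scores, both lists cut by score to equal covered length, joining of peaks 1 kb or 5 kb apart, bodies widened by 5 kb, peaks placed by midpoint and, added after seeing the data, scores of at least 100. The intervals are wide, so this is a weak check. The ratio of IGF1R ran from 1.89 (joined at 1 kb) to 2.79 (joined at 5 kb), and its interval included 1 when peaks were joined (0.924 to 3.86 at 1 kb), in the higher-scoring 50% (0.943 to 5.33) and at scores of at least 100 (0.834 to 6.04). The ratio of CAMKK2 was 1.19 in the higher-scoring 50%, 1.37 with the body widened and 2.49 at scores of at least 100. The ratios of SORD (0.922 to 1.42) and HERC3 (0.844 to 1.16) lay on either side of 1. Bodies 1.5-fold more covered numbered 4, and 3 or 4 in the other settings. CAMKK2 fell short when lists were cut to equal length, bodies widened or the better-scoring 50% used. RHOU fell short (1.42) when peaks were joined at 5 kb. At 2-fold the bodies were 2, IGF1R and MAF, of which MAF has no untreated peak and so no ratio. The share of member peaks overlapped was 56.2% after DHT and 80% in untreated cells when peaks were joined at 5 kb, since longer peaks meet more often. Depth is unknown, and arms with few peaks (MAF, RHOU, CAMKK2) limit what can be seen.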
